A study of Homo sapiens with 8 samples.

Results

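The genes described here encode the KMT2A methyltransferase, its chromatin cofactors menin (MEN1) and LEDGF (PSIP1), the methyltransferase DOT1L, and 5 proteins known as KMT2A fusion partners, MLLT1, MLLT3, MLLT6, MLLT10 and AFF1. These 9 members were chosen by gene name from a table of 38551 genes. They were measured by RNA-sequencing in the human line MOLM-13, which was derived from an acute myeloid leukemia and carries a KMT2A::MLLT3 fusion. Cells had been kept for 72 h either with the diluent DMSO (4 libraries) or with 100 nM PR-957 (4 libraries), which is also named ONX-0914 and inhibits the immunoproteasome subunit PSMB8. Both groups were the same single line, so neither holds cells without the fusion, and no source used here says whether the replicates were separate cultures. P-values therefore measure the spread between these libraries only.

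KMT2A places methyl groups on lysine 4 of histone H3. Its first part binds menin, and both together form a surface that holds LEDGF, a protein that reads methylated chromatin. In KMT2A-rearranged leukemia this first part is often fused to a partner that belongs to the transcription elongation machinery. The partners MLLT1 (ENL) and MLLT3 (AF9) are paralogs with a YEATS domain that reads acylated histones, and both can bind either DOT1L, which methylates lysine 79 of histone H3, or the elongation scaffold AFF1 (AF4). MLLT10 (AF10) and MLLT6 (AF17) are paralogs that act as cofactors of DOT1L. Since reads were counted per gene, a fusion transcript adds to the counts of KMT2A and of MLLT3, and counts of the fusion and of the normal alleles cannot be told apart.

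Total counts of DMSO libraries ran from 16675036 to 23111223, those of PR-957 libraries from 16996835 to 21151092 (exact permutation p = 0.914, two-sided). The 13 mitochondrially encoded genes in the table took 1.94% to 2.75% of counts in DMSO and 4.15% to 5.24% in PR-957 libraries (exact permutation p = 0.0286, the smallest p this design allows). All 6 myeloid markers examined (CD33, SPI1, MPO, CSF3R, LYZ and FLT3) had at least 1 CPM in every library, where CPM are counts scaled to the TMM-normalised library size. Their summed level was between 913 and 973 CPM with DMSO and between 1671 and 1964 CPM with PR-957, with higher means for MPO (175 and 506 CPM) and LYZ (153 and 820.0 CPM) and a lower mean for FLT3 (340.4 and 173 CPM). Neither the part of this shift nor that of the mitochondrial share in the results on the members was tested, and in bulk RNA fewer cells of a type cannot be told apart from less RNA per cell. Of the 15 markers of T, B, erythroid, epithelial and stromal cells, 13 stayed below 1 CPM in every library, CD3E had 0 counts, and the other two were CD79A and COL1A1, with at most 1.14 and 2.05 CPM. PSMB8, the target of the drug, had 8.43 ± 1.03 CPM with DMSO and 7.60 ± 1.65 CPM with PR-957 (SD, n = 4) and was not called (adjusted p = 0.438). The table also places PSMB8 on 7 alternate contigs, where reads that map to several places are not unique, so its full level is unknown and the absence of a call is limited in the same way.

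Of the 9 members, 8 could be tested. PSIP1, AFF1, MLLT3 and MLLT10 were lower and MEN1 and MLLT1 were higher in PR-957 libraries (quasi-likelihood test of edgeR, threshold 0.05 on the adjusted p), while KMT2A and DOT1L were not called. Among all 13179 tested genes 46.6% were called, 23.1% as higher and 23.5% as lower, so that calls as such are common in these libraries. The groups did not overlap for 6 of 8 members, against 42.5% of all tested genes. The median log2 fold change of the 8 members was -0.22, compared with 0.0030 over all tested genes. PSIP1 was the single member with a change of at least 1.5-fold, a size that 13.8% of all tested genes reached with a call.

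**Figure D1:**
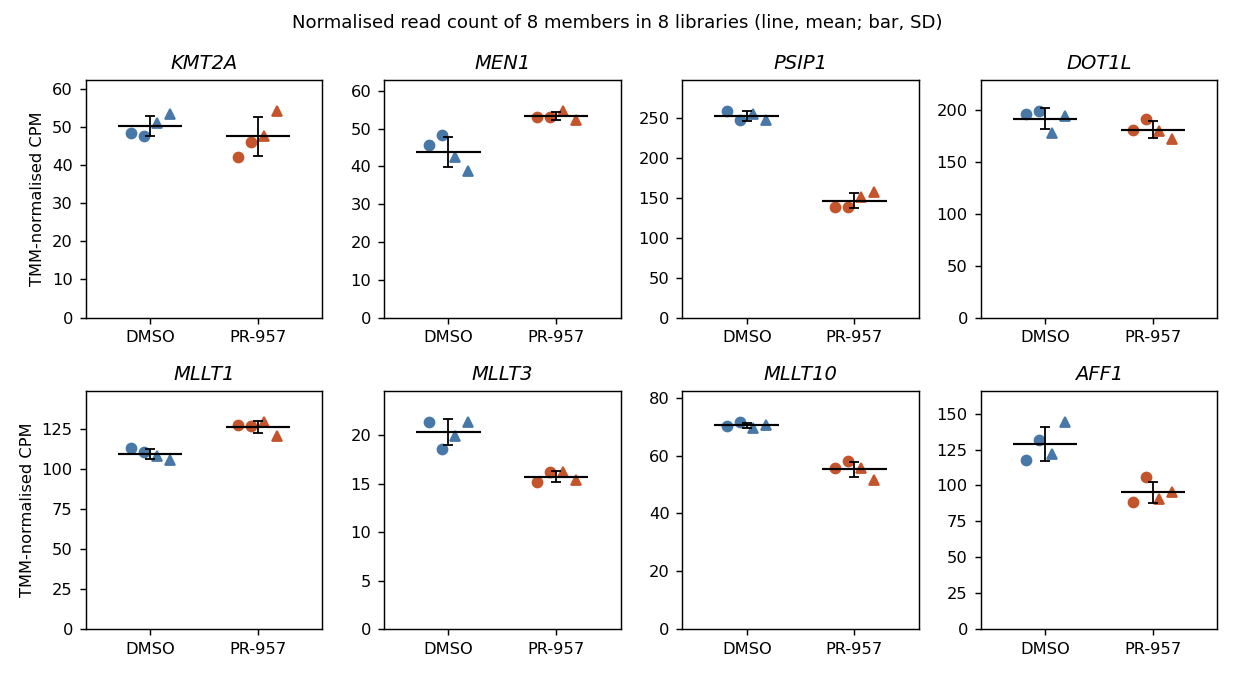
TMM-normalised CPM (y axes, from 0) of the 8 tested members in the 4 DMSO (blue) and 4 PR-957 (orange) libraries, with circles for replicates 1 and 2, triangles for replicates 3 and 4, a line for the mean and bars for the SD. PSIP1 fell from a mean of 252 to 146 CPM with no overlap, whereas the points of KMT2A and DOT1L overlap between groups.

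KMT2A itself (hg38, chr11:118436490-118526832) has 37 merged exons. Its normalised read counts were 48.6, 47.7, 51.1 and 53.5 CPM in DMSO replicates 1 to 4 and 42.1, 46.2, 47.8 and 54.3 CPM in PR-957 replicates 1 to 4. The highest and the lowest of all 8 values were both PR-957 libraries. The log2 fold change was -0.08 (SE 0.07, adjusted p = 0.393), and its 95% interval ran from 0.853-fold to 1.05-fold. Single libraries moved this value, to -0.030 without PR-957 replicate 1, -0.048 without DMSO replicate 4 and -0.149 without PR-957 replicate 4 (adjusted p = 0.0943). Of the exon bases of KMT2A, 1.08% are shared with LOC101929089 on the opposite strand, which had 0 counts.

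Menin, the product of MEN1, links KMT2A and its fusions to their target genes and is the protein addressed by menin inhibitors. MEN1 (chr11:64803514-64811294) had 45.6, 48.3, 42.6 and 38.8 CPM with DMSO and 53.1, 53.0, 54.7 and 52.3 CPM with PR-957. All PR-957 values lay above all DMSO values and within a narrow range. The mean rose from 43.8 ± 4.08 to 53.3 ± 1.03 CPM (SD, n = 4), or by 0.28 on the log2 scale (SE 0.07, adjusted p = 0.0018). This was the call that depended on the replicates. In replicates 1 and 2 only, the log2 fold change was 0.18 with an adjusted p of 0.0761, the highest of 19 alternatives, of which the lowest was 0.00022. Replicates 3 and 4 alone gave 0.39.

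LEDGF, encoded by PSIP1, tethers the complex of menin and KMT2A to chromatin and is also the host factor that lentiviral integrases bind. PSIP1 (chr9:15464066-15511019) had 258.9, 247.3, 255.3 and 247.0 CPM with DMSO and 137.8, 138.8, 151.4 and 157.1 CPM with PR-957. All PR-957 libraries lay far below all DMSO libraries. On the log2 scale the change was -0.79 (SE 0.06, adjusted p = 1.39e-09), which is a fall by 42.0% with a 95% interval for the fold from 0.535 to 0.629. Of all tested genes, 9.39% had a larger absolute log2 fold change. Under the 19 alternatives the log2 fold change stayed between -0.87 and -0.71 and was called in each. The table gives 1 count for all transcripts of the gene, so the long and the short LEDGF isoform were not separated.

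Exons of PSIP1 overlap those of SNAPC3 on the opposite strand, over 1517 bases or 28.6% of the exon bases of PSIP1. SNAPC3 encodes a subunit of the complex that activates small nuclear RNA genes, and it was lower too, from 60.4 ± 3.07 to 44.5 ± 3.23 CPM (log2 fold change -0.44, adjusted p = 1.76e-05). Reads were counted on one strand only, and the labels do not say whether the kit kept strand information. Reads of both genes in the shared stretch may therefore not be told apart. The same holds for stretches that other members share with genes on the opposite strand.

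DOT1L (chr19:2163933-2232578) had 196.7, 199.6, 177.8 and 194.1 CPM with DMSO and 180.8, 192.1, 180.1 and 172.5 CPM with PR-957. The groups overlapped, with the lowest DMSO library below 3 of the PR-957 libraries. Its log2 fold change was -0.08 (SE 0.06, adjusted p = 0.233), and the 95% interval ran from 0.872-fold to 1.02-fold. The gene shares 6.60% of its exon bases with PLEKHJ1 on the opposite strand, which was not called (adjusted p = 0.112).

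Its cofactor MLLT10 (chr10:21524616-21743630) showed the tightest DMSO group of all members, with 70.1, 71.6, 69.5 and 70.7 CPM. In PR-957 libraries it had 55.7, 58.0, 55.5 and 51.6 CPM, all below the DMSO libraries. The change was -0.35 on the log2 scale (SE 0.06, adjusted p = 4.22e-05). MLLT6, the paralog of MLLT10, could not be measured. It had 1 count in DMSO replicate 2 and 0 counts in the other 7 libraries, where 3 counts, the limit that a count of 0 allows, correspond to between 0.131 and 0.188 CPM. The table places MLLT6 on chromosome 17 (38705273 to 38729795) and a second time on an alternate contig, and a read that maps to both places is not unique. Of the 2094 genes with such a second placement, 75.9% had fewer than 10 counts in all libraries together, against 54.3% of the other genes. The part of the second placement in the missing counts was not tested, and the level of MLLT6 is unknown rather than low.

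The paralogs MLLT1 and MLLT3 moved in opposite directions. MLLT1 (chr19:6210381-6279975) had 112.8, 110.4, 108.1 and 105.5 CPM with DMSO and 127.4, 126.7, 129.2 and 120.5 CPM with PR-957. MLLT3 (chr9:20341669-20622499), the fusion partner in this line, had 21.4, 18.5, 19.9 and 21.4 CPM with DMSO and 15.2, 16.2, 16.2 and 15.4 CPM with PR-957. Neither gene overlapped between the groups. The log2 fold change was 0.21 for MLLT1 (SE 0.05, adjusted p = 0.00286) and -0.37 for MLLT3 (SE 0.08, adjusted p = 0.00111). Changes of this size were common, as 57.3% of all tested genes had a larger absolute log2 fold change than MLLT1 and 33.7% than MLLT3. MLLT3 held the fewest counts of the tested members, between 272 and 489 per library, and its 95% interval ran from 0.688-fold to 0.873-fold.

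AFF1, the scaffold of the super elongation complex and the most frequent KMT2A partner in infant lymphoblastic leukemia, was the remaining member. AFF1 (chr4:86934606-87141054) had 117.4, 131.7, 122.0 and 144.2 CPM with DMSO and 88.4, 105.5, 90.7 and 95.8 CPM with PR-957. The groups did not overlap, and DMSO replicate 4 was the highest library. The change was -0.44 on the log2 scale (SE 0.07, adjusted p = 4.29e-05), and it was -0.38 without DMSO replicate 4. AFF1-AS1, which lies on the opposite strand and shares 2.17% of the exon bases of AFF1, was lower as well (log2 fold change -0.55, adjusted p = 0.00979). It had only 782 counts in all libraries together. The part of AFF1 reads from the shared stretch in this fall was not tested.

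**Figure D2:**
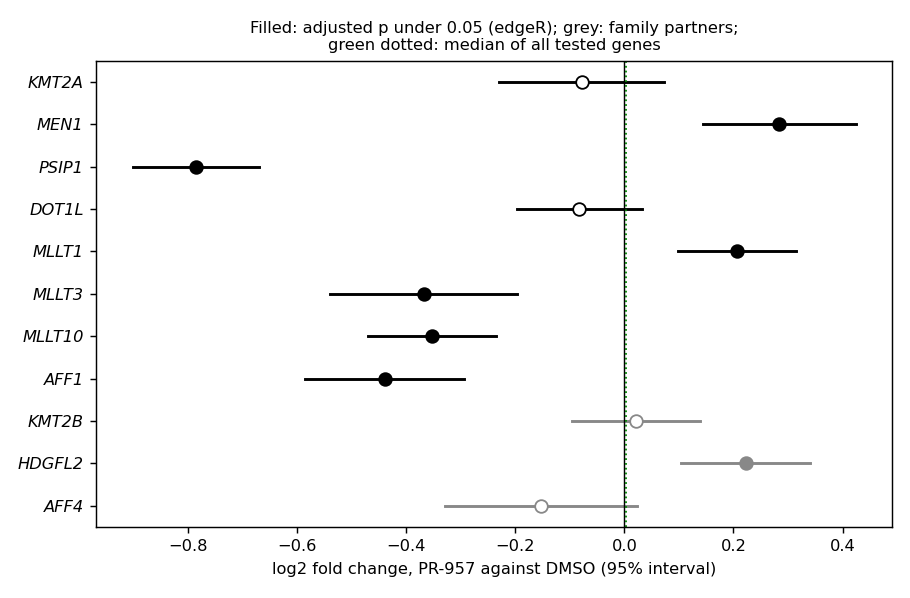
Log2 fold change of PR-957 against DMSO (x axis) with its 95% interval for the 8 tested members (black) and 3 family partners (grey), filled where the adjusted p was under 0.05, with the median of all tested genes as a dotted line. The interval of PSIP1 ends at -0.67 and lies apart from those of the other members, and the intervals of KMT2A and DOT1L cross 0.

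The plot of log2 fold changes sets the members side by side with close relatives outside the list. Ratios of counts within a library were used to test whether 2 genes changed unequally, since such a ratio does not depend on library scaling. Of 8 pairs listed, 7 could be tested, all but MLLT6/MLLT10, and 5 passed an adjusted p under 0.05 (exact permutation test, two-sided, adjusted over 7 pairs). Each of these had p = 0.0286 in the exact test, the smallest p that 4 against 4 libraries can give, and an adjusted p of 0.04. The adjusted value depends on how many of the 7 pairs reach that smallest p. In MLLT1/MLLT3 and PSIP1/HDGFL2 the 2 genes moved in opposite directions, each without overlap. In PSIP1/KMT2A and DOT1L/MLLT10, the groups of PSIP1 and of MLLT10 did not overlap. As a fold, the gap between these groups was wider than the whole spread of KMT2A and of DOT1L over all libraries. The outcome of the tests of all these pairs was thereby fixed, and they add nothing to the values of the single genes. Of the pairs that passed, only AFF1/AFF4 was not fixed in this way.

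The MLLT1/MLLT3 ratio of counts was 5.28, 5.95, 5.42 and 4.94 in DMSO and 8.41, 7.83, 7.97 and 7.85 in PR-957 libraries. Its mean on the log2 scale rose from 2.43 ± 0.11 to 3.00 ± 0.05 (SD, n = 4), a difference of 0.57 or 1.49-fold, with no overlap. The DOT1L/MLLT10 ratio rose on the log2 scale from 1.44 ± 0.06 to 1.72 ± 0.02, so that MLLT10 was lower relative to DOT1L. PSIP1 fell relative to KMT2A, with a difference of -0.71 on the log2 scale. Neither the DOT1L/MLLT10 nor the PSIP1/KMT2A ratio overlapped between the groups, which followed from the values of the single genes.

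HDGFL2 (HRP2) is the paralog of LEDGF and shares its chromatin reader and integrase-binding domains. It was higher in PR-957 libraries, from 111 ± 7.33 to 130 ± 3.51 CPM (log2 fold change 0.22, SE 0.06, adjusted p = 0.00316). The ratio of PSIP1 to HDGFL2 counts was 2.18, 2.30, 2.20 and 2.40 in DMSO and 1.05, 1.10, 1.13 and 1.23 in PR-957 libraries. This pair showed the largest shift of the 7 pairs, -1.01 on the log2 scale, and from -1.06 to -0.97 over 11 alternatives.

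AFF4, the other scaffold of the super elongation complex, had 24.8 ± 2.83 CPM with DMSO and 22.4 ± 0.71 CPM with PR-957 and was not called (log2 fold change -0.15, adjusted p = 0.144). Without DMSO replicate 4, its highest library, the log2 fold change was -0.070. Its 95% interval ran from 0.796-fold to 1.02-fold. The AFF1/AFF4 ratio fell by 0.29 on the log2 scale without overlap. KMT2B, the closest paralog of KMT2A and also bound by menin, changed by 0.02 on the log2 scale and was not called (adjusted p = 0.773). The KMT2B/KMT2A ratio differed by 0.10 on the log2 scale (exact permutation p = 0.429). Single libraries moved this value, to 0.035 without PR-957 replicate 1, 0.040 without DMSO replicate 4, 0.158 without DMSO replicate 2 and 0.189 without PR-957 replicate 4. For MEN1/KMT2A the difference was 0.37, with overlapping groups (exact permutation p = 0.0571, adjusted p = 0.0667). The unequal rise of MEN1 against KMT2A thus did not pass the threshold, although MEN1 alone was called.

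**Figure D3:**
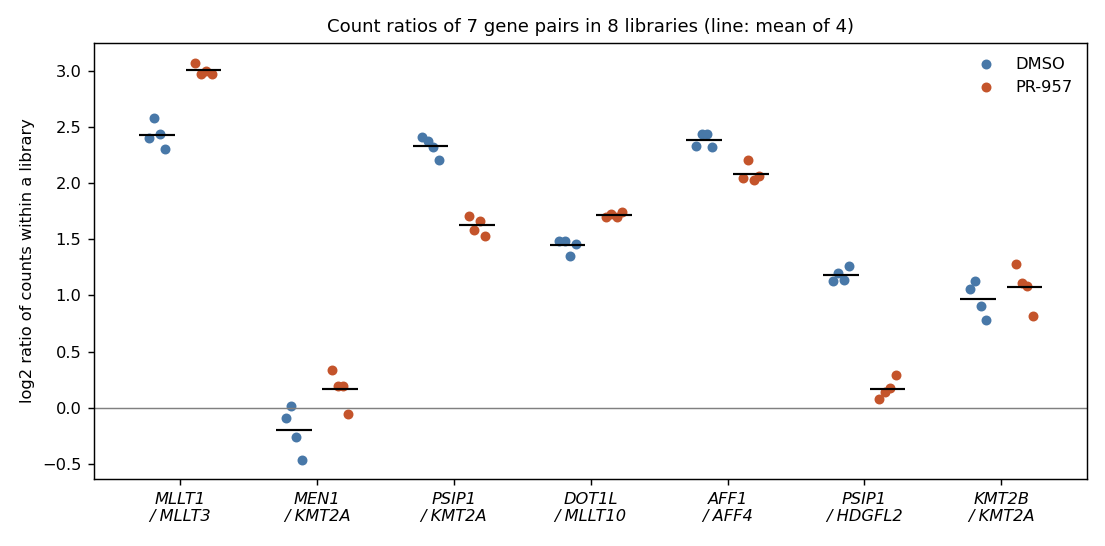
Log2 ratio of counts (y axis) of 7 gene pairs in each DMSO (blue) and PR-957 (orange) library, with a line for the mean of 4. The PSIP1/HDGFL2 ratio drops from a mean of 1.18 to 0.17 and the MLLT1/MLLT3 ratio rises from 2.43 to 3.00, while MEN1/KMT2A and KMT2B/KMT2A overlap between groups.

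Levels were compared between members per exon length, as TPM, which divide counts by exon length and then scale them to the same sum in each library. PSIP1 was the most abundant member in DMSO libraries with 102 ± 0.88 TPM (SD, n = 4) and MLLT3 the least abundant with 6.27 ± 0.42 TPM, a ratio of 16.2. In between stood MLLT1 (42.9 ± 1.28 TPM), DOT1L (41.1 ± 2.88), MEN1 (24.9 ± 2.41), AFF1 (24.5 ± 2.86), MLLT10 (14.8 ± 0.56) and KMT2A (6.44 ± 0.40). The ranges of 3 neighbours in this order overlapped in DMSO, namely MLLT1 with DOT1L, MEN1 with AFF1, and KMT2A with MLLT3.

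The order of means was the same in PR-957 libraries, but there no range overlapped that of its neighbour. PSIP1 had 61.3 ± 5.61 TPM and MLLT1 51.3 ± 1.71 TPM, so the distance between the first and the second member was smaller than in DMSO. MEN1 was at 31.4 ± 1.18 and AFF1 at 18.8 ± 1.78 TPM, and KMT2A at 6.35 ± 0.85 and MLLT3 at 5.04 ± 0.28 TPM. These levels use all annotated exons of a gene as its length, which understates genes that express short transcripts.

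Sequences before the transcription start are shown for the paralogs MLLT1 and MLLT3, since they moved in opposite directions, and for PSIP1, the member with the largest change. The KMT2A::MLLT3 fusion transcript, which adds to the counts of MLLT3, begins with KMT2A and not at the MLLT3 start. The sequences come from RefSeq (GRCh38.p14), in which 8 of the 9 members had an entry, DOT1L being the exception. Each line runs along the strand of the gene and ends before the first annotated exon base, which leaves 201 bases for PSIP1 (chr9:15511020-15511220, minus strand) and 250 each for MLLT1 (chr19:6279976-6280225, minus strand) and MLLT3 (chr9:20622500-20622749, minus strand). Capitals mark matches to the motifs named after them.
MLLT1: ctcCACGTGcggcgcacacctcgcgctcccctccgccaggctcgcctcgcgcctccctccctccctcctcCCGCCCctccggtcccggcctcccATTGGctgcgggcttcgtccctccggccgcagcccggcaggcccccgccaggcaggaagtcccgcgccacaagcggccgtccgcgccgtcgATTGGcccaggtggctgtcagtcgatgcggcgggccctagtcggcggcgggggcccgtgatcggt
MLLT3: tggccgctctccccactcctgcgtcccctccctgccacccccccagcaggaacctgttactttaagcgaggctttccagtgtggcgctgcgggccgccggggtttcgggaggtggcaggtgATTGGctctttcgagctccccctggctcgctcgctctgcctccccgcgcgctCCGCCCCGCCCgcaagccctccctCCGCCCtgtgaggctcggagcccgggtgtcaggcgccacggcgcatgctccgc
PSIP1: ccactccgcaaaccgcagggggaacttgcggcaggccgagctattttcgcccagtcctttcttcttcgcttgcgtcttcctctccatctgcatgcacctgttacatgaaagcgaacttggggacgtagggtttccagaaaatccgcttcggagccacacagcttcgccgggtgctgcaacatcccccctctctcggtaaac

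Motifs were searched on both strands in the 250 bases before each start. The CCAAT box (CCAAT) was present in 32.0% and the GC box (GGGCGG) in 42.6% of 35116 promoters of this length. MLLT1 held 2 CCAAT boxes on the opposite strand, starting 156 and 65 bases before the start, 1 GC box and 1 E-box (CACGTG, in 6.34% of all promoters). MLLT3 held 1 CCAAT box and 3 GC boxes, 2 of which share a base. Of the 2 annotated starts of PSIP1, the window of the one shown held none of these, and that of the other (chr9:15510359-15510608) held 1 GC box. No window of a member held the ETS core (CCGGAAG, 8.52% of all promoters), CRE (TGACGTCA, 1.65%), NRF1 (1.03%), YY1 (AAGATGGC, 1.36%) or C/EBP-ATF (TGATGNAA, 3.14%) letters. All 3 windows were rich in CpG, with 34 in MLLT1, 24 in MLLT3 and 23 in the 250 bases of PSIP1, against a median of 11 over all promoters.

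The other genes of the pathway were taken from 6 lists with 62 genes, of which 61 were tested (SEPTIN5 had 0 counts). In all, edgeR called 16 as higher and 17 as lower, and 28 were not called, with a median log2 fold change of -0.07. The share called was 54.1%, beside 46.6% among all tested genes, of which 23.1% were called higher and 23.5% lower. Without PR-957 replicate 3 the number of higher genes was 9, and in replicates 3 and 4 only the number of lower genes was 9.

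Core subunits of the KMT2-type methyltransferases (WDR5, RBBP5, ASH2L and DPY30) were examined first, in a list with the associated genes HCFC1, HCFC2 and TASP1. Of these 7 genes, 2 were higher (DPY30 and HCFC1) and 1 lower (ASH2L), with a median of 0.11. DPY30, a small subunit of the core, rose from 38.5 ± 2.01 to 49.3 ± 1.67 CPM, and ASH2L, which activates the methyltransferase, fell from 117 ± 6.69 to 94.8 ± 3.68 CPM (SD, n = 4). Among 11 related methyltransferases and their own subunits, 4 were higher and 1 lower (7 and 0 with library totals alone). PAGR1, a subunit of the KMT2C and KMT2D complexes, had the largest increase (log2 fold change 0.49, adjusted p = 1.04e-05), and KMT2C was the gene that was lower (log2 fold change -0.17, adjusted p = 0.0264). The number of higher genes in this list was 2 without DMSO replicate 1, without PR-957 replicate 4 or in replicates 1 and 2 only. KMT2C lost its call without DMSO replicate 4, without PR-957 replicate 1 and in either pair of replicates alone.

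The list of the super elongation complex and P-TEFb also held LARP7, MEPCE and HEXIM1, which encodes an inhibitor of P-TEFb. Of its 14 genes, 4 were higher (AFF2, ELL2, HEXIM1 and LARP7), 2 were lower (ELL and CDK9) and 8 were not called. AFF2 was called with overlapping groups. The elongation factor ELL2 had the largest increase, from 1.57 ± 0.46 to 3.34 ± 0.65 CPM (log2 fold change 1.07, adjusted p = 0.00106), at a low level in both groups. ELL, its paralog and itself a KMT2A fusion partner, fell from 38.1 ± 3.01 to 31.8 ± 2.34 CPM (log2 fold change -0.26, adjusted p = 0.00751). Without PR-957 replicate 3 this list had 2 higher genes and 1 lower gene, and in replicates 3 and 4 only it had 0 lower genes. Of 6 genes of the PAF1 complex, which binds KMT2A and RNA polymerase, 4 were called higher by edgeR and the other two were not called. The same list had 1 higher gene in replicates 1 and 2 only and 1 without PR-957 replicate 3, and 2 in replicates 3 and 4 only or without DMSO replicate 4. PAF1 had the largest increase, from 93.3 ± 2.38 to 118 ± 2.51 CPM (log2 fold change 0.34).

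Among 8 chromatin readers and acetyltransferases, 5 were lower and 1, HDGFL2, was higher. The largest decrease was that of YEATS4, a YEATS domain protein like MLLT1 and MLLT3, from 94.5 ± 3.89 to 73.9 ± 4.18 CPM (log2 fold change -0.35, adjusted p = 5.65e-05). The count of lower genes in this list was 2 in replicates 3 and 4 only. Of 15 tested further KMT2A fusion partner genes, 8 were lower and 1 was higher, with a median of -0.21. FOXO3, a forkhead transcription factor, fell from 72.0 ± 4.11 to 46.6 ± 2.68 CPM (log2 fold change -0.63, adjusted p = 1.44e-07). MLLT11 was called higher at 0.633 ± 0.169 against 1.17 ± 0.418 CPM with overlapping groups (adjusted p = 0.0434), and 11 of 19 alternatives, among them DESeq2 and limma-voom, did not call it.

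**Figure D4:**
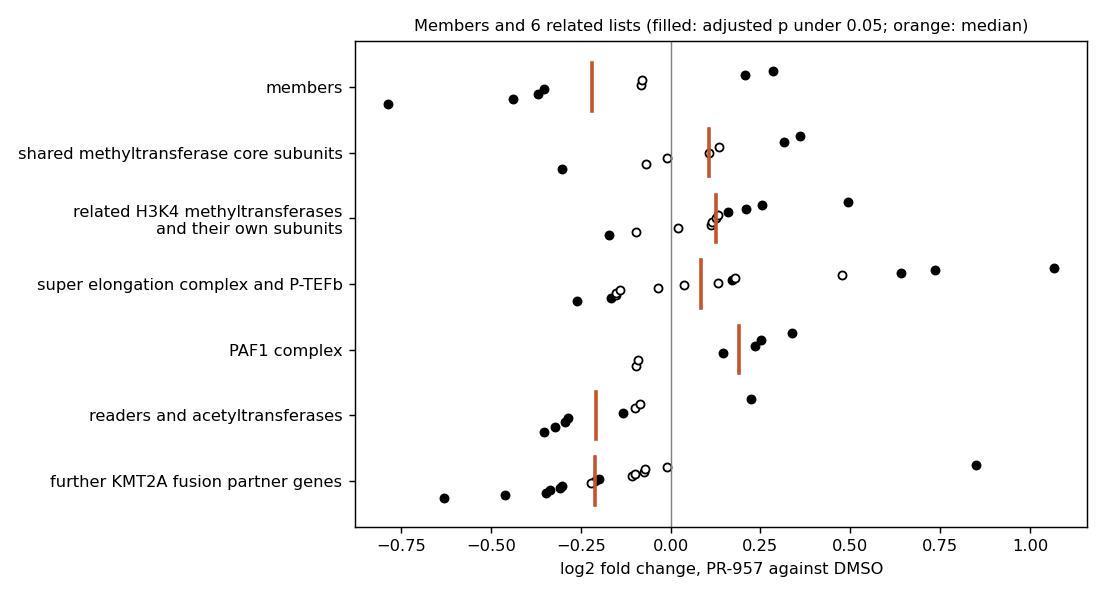
Log2 fold change (x axis) of each tested gene among the members and in the 6 related lists, filled where the adjusted p was under 0.05, with an orange line for the median. The medians are -0.22 for the members, 0.19 for the PAF1 complex and -0.21 for both readers and acetyltransferases and further fusion partner genes.

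The genes whose log2 CPM followed a member most closely over the 8 libraries were looked up for KMT2A, MEN1 and MLLT3 among 9246 other genes with an average log2 CPM of at least 3. For KMT2A these were PAQR8, EPC2 and LOC284454, with Pearson's r of 0.973, 0.957 and 0.955. For MEN1 they were FBF1, NDUFV3 and TIGAR (r of 0.995, 0.987 and 0.985), and for MLLT3 they were MCTP1, ANKH and DBP (r of 0.995, 0.995 and 0.989). These values are a description over 8 libraries that share treatment groups and scaling.

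**Figure D5:**
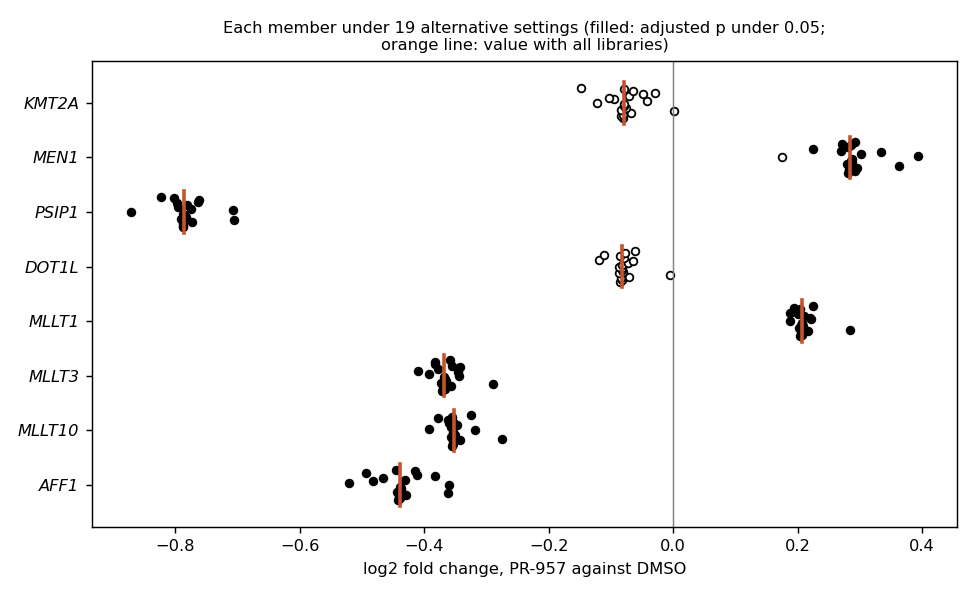
Log2 fold change (x axis) of each tested member under 19 alternative settings of test, scaling, filter and library choice, filled where the adjusted p was under 0.05, with an orange line for the value with all libraries. PSIP1, AFF1, MLLT3, MLLT10 and MLLT1 are filled throughout, MEN1 has 1 open point, and KMT2A and DOT1L have open points only.

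The plot of settings shows how firmly each member was placed. PSIP1, AFF1, MLLT3, MLLT10 and MLLT1 were called in all 19 alternatives, MEN1 in 18, and KMT2A and DOT1L in none. For KMT2A the adjusted p ranged from 0.0943 to 0.992 and for DOT1L from 0.106 to 0.948. With library totals alone, which moved the median of all tested genes to 0.08, KMT2A had a log2 fold change of 0.0011 and DOT1L of -0.0049.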

How the data were processed

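RNA-sequencing libraries of MOLM-13 cells (4 DMSO, 4 PR-957) were grouped by their titles. Per the labels and the file headers, the authors trimmed reads with Trimmomatic 0.39, aligned them to hg38 with STAR 2.7.10a and counted fragments with featureCounts 2.0.1, with both ends mapped, on the reverse strand with RefSeq annotation. Raw counts were deposited. The header named 16 libraries, of which 8 are in the table. In long rows the strand column was shortened, and the strand was taken from its first part. The authors' own comparison, a table of fold changes and p-values, was not used. Of 38557 gene rows, 6 without values were left out.

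Members and lists were chosen with earlier results of these data known. Genes were tested with edgeR 4.0.16 in R 4.3.3 (glmQLFit, robust, glmQLFTest, two-sided) after TMM scaling and filterByExpr, which kept 13179 genes with 99.9% of counts, with Benjamini-Hochberg adjustment across them. SE was derived from the log2 fold change and its F statistic, and 95% intervals used the fitted degrees of freedom. The fit was tested on simulated data. Ratios were tested by exact permutation over 70 splits (scipy 1.17.1). Limits from a count of 0 cover counting error only. Replicates of a group differed beyond sampling noise (lowest chi-square per gene 3.32, replicates 1 and 3 of DMSO). Alternatives were DESeq2 1.42.0, limma-voom (limma 3.58.1), other scalings and filters, the replicate number as a block, replicates 1 and 2 against 3 and 4 as a term or alone, and each library left out. Named genes were the members, their partners in ratios, the largest called increase and decrease of each list, markers, PSMB8 and the 3 most similar genes. Genes that overlap a member, and further genes named in the lists of core subunits and of the super elongation complex, were added after their values were seen.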

Additional observations from a re-analysis of the deposited data

Results flagged for a closer look

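Of 30 groups of 4 libraries examined for a library far from the others (8 members and 7 ratios in each treatment), 1 was flagged, where chance flags about 1 in 20. In PR-957 libraries the AFF1/AFF4 log2 ratio was 2.04, 2.21, 2.03 and 2.06 in replicates 1 to 4. The gap of replicate 2 to its nearest neighbour took 0.832 of the whole range, above Dixon's critical value for 4 samples. Replicate 2 lay closest to the DMSO libraries, which ran from 2.32 to 2.44, and did not overlap them.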

How the results depend on the processing

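The numbers of members called lower (4) and higher (2) were the same in all 19 alternatives, except that 1 member was higher in replicates 1 and 2 only, where MEN1 had an adjusted p of 0.0761. The log2 fold change of KMT2A turned to 0.0011 with library totals alone, which raised all values by about the shift of the median gene. KMT2B, not called in any setting, had -0.026 in replicates 1 and 2 only and between -0.013 and 0.051 when each library was left out. Of the related list genes, between 9 (without PR-957 replicate 3) and 16 were higher when each library was left out, and 9 were lower in replicates 3 and 4 only. With library totals alone 22 were higher and 12 lower, and over all genes 4066 were higher and 2353 lower, against 3045 and 3098; the cause was not tested. The 7 ratios kept their direction over 11 alternatives each. For pairs without overlap between the groups this could not turn out otherwise, so only MEN1/KMT2A and KMT2B/KMT2A could have turned. For ratios, the alternative with the replicate number as a block gives the value of all libraries by construction. In the order of levels, MEN1 and AFF1 changed places without DMSO replicate 1 or 2. With the replicate number as a block, 2 members were higher and 4 lower, and 20 related genes were higher and 19 lower. The labels do not say what a replicate number shares. Same-numbered libraries had correlations of their deviations from 0.0985 to 0.213. Every library but PR-957 replicate 3 correlated best with its own number. That library had 0.105 with DMSO replicate 4 and 0.0985 with DMSO replicate 3. Depth limits the low genes ELL2 and MLLT11.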

Other observations

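HEXIM1 and the septins were examined after their values were seen. HEXIM1 encodes an inhibitor of the kinase P-TEFb. It rose from 57.3 ± 3.66 to 89.5 ± 11.5 CPM (SD, n = 4; edgeR adjusted p = 4.85e-06) with no overlap between the groups. Of the 3 tested septins of the fusion partner list, cytoskeletal genes that are also KMT2A fusion partners, SEPTIN6 and SEPTIN11 were lower in PR-957 libraries and SEPTIN9 was not called. SEPTIN6 fell from 113 ± 6.16 to 82.4 ± 2.44 CPM and SEPTIN11 from 80.4 ± 4.71 to 63.2 ± 5.85 CPM (edgeR adjusted p = 1.71e-06 and 0.000313). SEPTIN9, which the table also places on an alternate contig, had 77.9 ± 4.71 and 72.4 ± 2.17 CPM with overlapping groups (edgeR adjusted p = 0.139).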
